A study of Mus musculus with 4 samples.

Results

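Platelet and megakaryocyte barcodes from mouse livers are described here, in a model where hepatocellular carcinoma (HCC) was induced by genes. A barcode stands for the RNA caught in 1 droplet, and a UMI for 1 counted RNA molecule. The members were chosen by the UMIs of marker genes. A barcode was a member if it held at least 2 UMIs of Itga2b, Gp9, Gp1bb and Ppbp together and at least 1 UMI of Pf4. It also had to hold fewer than 3 UMIs of the macrophage genes C1qa, C1qb and C1qc and none of the lymphocyte genes Cd3d, Cd3e, Cd3g and Cd79a. Among 36150 barcodes with at least 500 UMIs, at least 200 genes and less than 20% mitochondrial UMIs, 71 met this rule (0.196%, exact 95% interval 0.153 to 0.248). The matrix held 38072 barcodes in all.

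The series has 1 sample each of normal liver (HCC-NL, week 0) and of tumor early (HCC-ES, week 4), later (HCC-MS, week 8) and last (HCC-LS). For the last one the sample's label says week 10 but the text of the series says week 12, and the labels used here give neither the induced genes nor strain, age or sex. Red blood cells were lysed before capture in every sample, per the labels' protocols. The barcodes fall into 4 libraries whose samples the labels and headers do not name, so the weeks were not compared and the pool counts as 1 sample with no replicates. All intervals are 95% intervals that cover counting error only, and no p-value is given.

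Megakaryocytes are large polyploid cells of the bone marrow, and of the liver in the fetus, that grow from stem cells under thrombopoietin, a hormone made mostly by the liver. They fill their cytoplasm with granules and membranes and shed platelets, fragments without a nucleus that carry the RNA they were given. Platelets bind exposed vessel wall through surface glycoproteins, release adhesive proteins, chemokines and growth factors from alpha granules and small molecules from dense granules, and contract through actin and myosin. GATA factors, chiefly GATA1, and ETS factors such as FLI1 act together on many megakaryocyte promoters.

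Promoters of 4 genes are shown because each holds letters of both factor families within 250 bases before and 50 bases after the start of the gene. They encode platelet factor 4 (Pf4), subunits of the von Willebrand factor receptor (Gp1ba and Gp5) and a thrombin receptor (F2rl2). The sequences are RefSeq's, build GRCm38.p6, written 5′ to 3′ along the strand of the gene. Capitals mark the GATA letters AGATAA or TGATAA and the ETS letters AGGAAG or CGGAAG, read on either strand.
Pf4, chr5:90772185-90772484, strand +: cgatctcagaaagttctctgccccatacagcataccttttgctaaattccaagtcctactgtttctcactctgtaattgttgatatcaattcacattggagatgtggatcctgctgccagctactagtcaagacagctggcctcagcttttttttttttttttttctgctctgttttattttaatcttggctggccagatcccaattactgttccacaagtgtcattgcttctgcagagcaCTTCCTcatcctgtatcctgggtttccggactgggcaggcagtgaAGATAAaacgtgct
Gp1ba, chr11:70638872-70639171, strand +: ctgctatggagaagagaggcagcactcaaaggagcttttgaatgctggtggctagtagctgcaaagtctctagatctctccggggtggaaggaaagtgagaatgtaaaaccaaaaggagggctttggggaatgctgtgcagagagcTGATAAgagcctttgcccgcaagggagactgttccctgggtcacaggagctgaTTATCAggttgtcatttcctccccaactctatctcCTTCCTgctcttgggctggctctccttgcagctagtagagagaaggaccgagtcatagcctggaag
Gp5, chr16:30310732-30311031, strand -: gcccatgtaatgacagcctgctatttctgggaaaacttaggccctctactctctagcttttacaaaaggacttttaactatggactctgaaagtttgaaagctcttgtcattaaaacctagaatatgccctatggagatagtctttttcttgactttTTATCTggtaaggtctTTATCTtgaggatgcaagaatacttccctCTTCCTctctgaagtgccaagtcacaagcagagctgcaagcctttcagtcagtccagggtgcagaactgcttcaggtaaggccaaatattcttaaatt
F2rl2, chr13:95696670-95696969, strand +: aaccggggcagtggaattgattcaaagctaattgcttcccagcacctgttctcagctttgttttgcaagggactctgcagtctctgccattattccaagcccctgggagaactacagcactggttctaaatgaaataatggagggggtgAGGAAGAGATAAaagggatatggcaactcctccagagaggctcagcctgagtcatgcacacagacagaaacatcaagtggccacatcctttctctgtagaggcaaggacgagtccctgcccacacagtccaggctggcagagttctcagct
Gp1ba and Gp5 each hold 2 GATA matches, and in F2rl2 the ETS and GATA letters stand next to each other. Of 12 promoters searched for platelet genes that the rule did not use, 6 held the GATA letters (50%), 7 the ETS letters (58.3%) and 3 both (25%). Of 100 promoters of 80 list genes that were higher in members, 20% held the GATA letters, 60% the ETS letters and 11% both. Of the 5 promoters of the genes of the rule, 1 held the GATA letters, 4 the ETS letters and 1 both. Of the 32851 promoters of this length that were searched, 18.6% held the GATA letters, 46.5% the ETS letters and 7.70% both. All these counts leave out the promoters of 1 chromosome. A match of letters is a description and was not tied to any measurement of binding.

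The members were spread unevenly over the libraries. Libraries 1 to 4 held 4, 27, 3 and 37 of them, which is 0.0437%, 0.332%, 0.0295% and 0.425% of their filtered barcodes. Over all filtered barcodes the median depth of libraries 1 to 4 was 1307, 3376, 1322 and 2575 UMIs. Members held 516 to 74234 UMIs with a median of 2111, and 413640 UMIs together. The 8 deepest members held 60.97% of these UMIs, so sums over members speak mostly for a few barcodes. A doublet score above 0.25 was found for 2 members, of libraries 1 and 3, and for 1367 of all 36150 filtered barcodes. Neither of the 2 was among the 16 members with markers of other cells (below), so this score did not flag those. Of all barcode sequences, 710 occurred in more than 1 library, and 1 member carried such a sequence.

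The genes of the rule are given as a description, since they chose the members. Pf4 (ENSMUSG00000029373), a chemokine of alpha granules, had 2547 UMIs in the members, with a median of 3 and a maximum of 1036 per barcode. Ppbp (ENSMUSG00000029372), the precursor of another alpha granule chemokine, had 419 UMIs in 57 members. Gp9 (ENSMUSG00000030054) and Gp1bb (ENSMUSG00000050761), subunits of the von Willebrand factor receptor, were seen in 57 and 32 members, and Itga2b (ENSMUSG00000034664), the alpha chain of the fibrinogen receptor, in 53. Of the 4 genes summed by the rule, 5 members held 1, 23 members held 2, 24 members held 3 and 19 members held 4. Pf4 alone did not mark these barcodes, because C1q macrophages held 3039 Pf4 UMIs and 25.2% of them had at least 1.

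Barcodes near the limits of the rule differed from each other by degrees. Of the 14 members with a sum of exactly 2, 6 held at least 2 of 15 platelet genes that the rule did not use. Of 30 barcodes with a sum of 1 that met the rest of the rule, 9 did. Of the 14 members with 1 Pf4 UMI, 9 held at least 2 of those genes, and of 37 barcodes with no Pf4 UMI, 11 did. Of the 10 members with 1 or 2 C1q UMIs, 9 did, and of 12 barcodes with 3 or more C1q UMIs, 7 did.

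These 15 genes checked the label. Among them are genes of adhesion receptors (Gp1ba, Gp5, Gp6, Itgb3, Clec1b), activation receptors and enzymes (Treml1, F2rl2, P2ry12, Alox12), granule proteins (Mmrn1, Nbeal2, Rab27b), a platelet tubulin (Tubb1) and GATA1 (Gata1). At least 2 of them were found in 61 of 71 members (85.9%, 75.6 to 93.0), at least 5 in 36 members, and 0 or 1 in 10 members. With each barcode thinned to 500 UMIs, 41 members (57.7%, 45.4 to 69.4) held at least 2, against 42 of all 36079 other filtered barcodes (0.116%, 0.0839 to 0.157). As counted, 366 of the other barcodes did (1.01%), at a median depth of 1771 UMIs. In hepatocyte-rich barcodes, which should lack these genes and give the level of free RNA, the shares were 0.146% as counted and 0.0439% thinned. Most members therefore held at least 2 platelet genes outside the rule. The 10 members with 0 or 1 of them rest on the rule alone. The median was 2.5 of the 15 genes in the 16 members with markers of other cells (below) and 5 in the 55 others. Such genes also stood beside markers of other cells: 1 member held 2 of them and 537 MHC class II UMIs. Clec1b, among the 15, was also found in 36.6% of C1q macrophages. Gata1 was found in 51.3% of erythroid precursors and 12.7% of members, and Nbeal2 in 11.5% of granulocyte-monocyte progenitors and 5.63% of members. P2ry12 was found in 5.62% of C1q macrophages and 2.82% of members. Each of the rest was found in a larger share of members than of any of these sets.

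**Figure D1:**
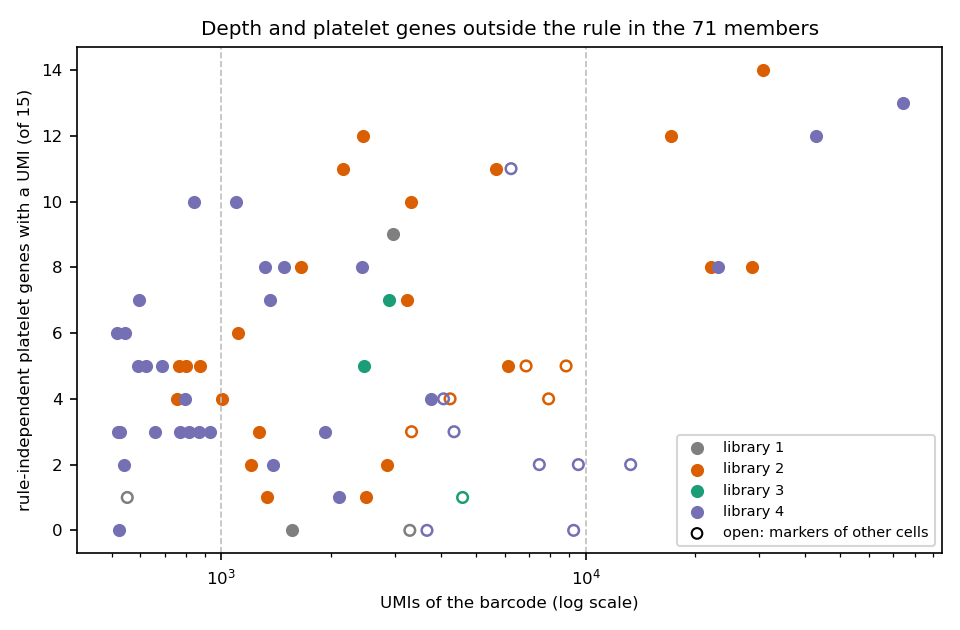
Each point is 1 of the 71 members, with its UMIs on a log scale along x and the number of the 15 rule-independent platelet genes with a UMI along y, coloured by library. Dashed lines stand at 1000 and 10000 UMIs, and open points are the 16 members with markers of other cells. The 7 filled points beyond 10000 UMIs hold 8 to 14 of the genes.

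**Figure D2:**
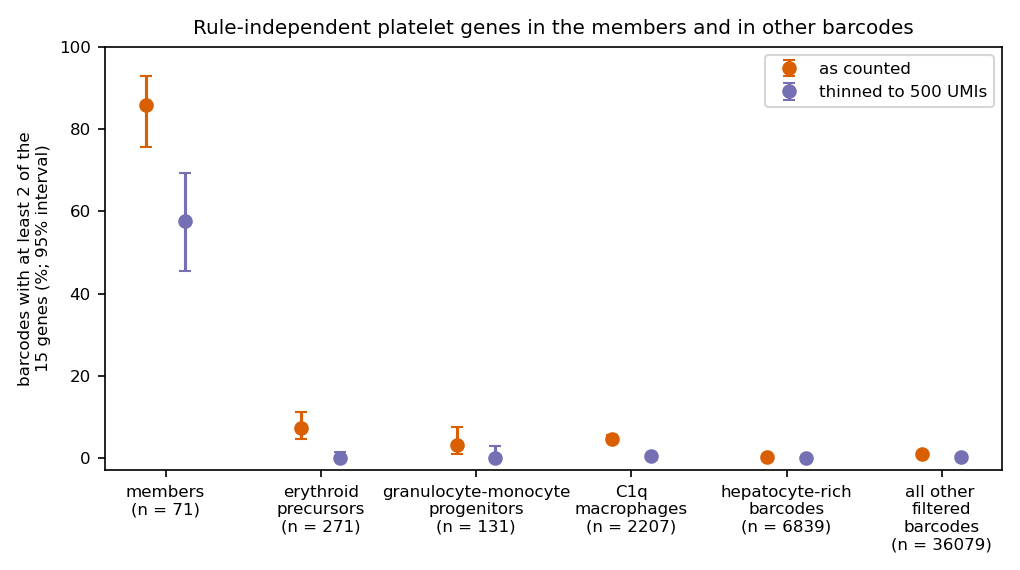
Percent of barcodes with at least 2 of the 15 rule-independent platelet genes, in the members and in 5 other sets of filtered barcodes, with exact 95% intervals, as counted and after thinning to 500 UMIs. Members stand at 85.9% as counted and 57.7% thinned, and the other sets at 7.38% or less.

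Markers of other cells were seen in 16 members, by limits set after the values were seen. At least 50 UMIs of MHC class II genes were held by 7 of them, at least 50 UMIs of neutrophil genes by 2 and at least 50 of hepatocyte genes by 2. At least 5 UMIs of endothelial genes were held by 3 and of collagen genes by 2. The summed level of 9 dendritic cell markers was 4854 CPM in members (UMIs of the genes scaled to the total UMIs of the set) and 2033 CPM in all other filtered barcodes. Single members gave up to 5.64% of their UMIs to these genes, the median was 0, and Xcr1 was at 0. Cd74, the invariant chain of MHC class II, had 1247 UMIs in 15 members, with a log2 ratio of 1.13 that was -4.68 without the 16 members. The MHC class II sum was Cd74, H2-Aa and H2-Ab1, and the neutrophil sum S100a8, S100a9 and Retnlg. Leaving those members out therefore lowers these genes by construction. Neutrophil markers were at 554 CPM in members and 1463 CPM in the others, and came from 4 members with up to 23.7% of a barcode's UMIs, while Camp, Ngp, Ltf, Ly6g and Mmp8 were at 0.

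Hepatocyte markers were at 2860 CPM in members and 15108 CPM in the others, and 68 members held a UMI of them. Per barcode they took a median of 0.619% of UMIs in members and 0.852% in the others, so the gap in the sums was much wider than that in the barcodes. Erythroid markers were at 74.9 CPM in members and 703 CPM in the others, with Hba-a2, Klf1, Rhd and Alas2 at 0. Macrophage markers outside the rule were at 82.2 and 240 CPM, with Adgre1, Clec4f and Marco at 0 in members. Monocyte markers were at 428 CPM in members and 215 CPM in the others, and progenitor markers at 1441 and 640 CPM, with Elane and Ctsg at 0 in members. Of the 596 UMIs of progenitor markers in members, Srgn gave 397, Calr 125 and Nkg7 46, against 25 of Prtn3 and 2 of Mpo. Among these 8 genes 2 were higher in members and 3 lower, by the call defined below. Endothelial markers were at 377 and 429 CPM, stellate cell and fibroblast markers at 341 and 116 CPM, and basophil and mast cell markers at 19.3 and 12.8 CPM, in members and the others. The stellate cell and fibroblast UMIs came from 4 members, with up to 2.57% of a barcode's UMIs. T and NK cell markers were at 114 and 218 CPM and B and plasma cell markers at 24.2 and 243 CPM. The part of these cells in the results below was not tested. Without the 16 members, 104 of 110 named genes kept their call, Flt3 (1.56), Rrm2 (-0.85) and Stat5a (1.76) lost it, and Cd74, H2-Aa and Fscn1 changed sign. The change of Cd74 and H2-Aa follows from the choice of the 16.

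Members were set against all other filtered barcodes to ask which platelet and megakaryocyte genes they carried. A gene is called higher or lower here where its CPM differed at least 2-fold, the counting interval excluded equality, and libraries 2 and 4, the ones with at least 20 members, went the same way. Of 15986 genes with at least 20 UMIs, 10.7% were higher and 8.25% lower, with a median log2 ratio of -0.19, or 0.60 where genes with no UMI in members are set to 3 counts. Of 125 genes tested in the 7 platelet and megakaryocyte lists, with the genes of the rule left out, 95 were higher and 1 lower, with a median of 2.89. Without the members of 10000 UMIs or more, 77 were higher. Of the 95, 4 reached 20 UMIs only with those of the members, among them Gp6, Slc35d3 and Trpc6, and 91 of the remaining 121 were higher.

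Adhesion receptors bind platelets to collagen, fibrinogen and von Willebrand factor, and 11 of 13 tested were higher, none lower, with a median log2 ratio of 4.25. Gp6 (ENSMUSG00000078810), the collagen receptor, had 2, 11, 0 and 12 UMIs in the members of libraries 1 to 4, and 25 UMIs in members against 10 in all other filtered barcodes. Its level was 60.4 CPM in members and 0.0799 CPM in the others, a log2 ratio of 9.56 (8.46 to 10.79). Gp5 (ENSMUSG00000047953) stood at 162 and 0.399 CPM, a log2 ratio of 8.66 (8.11 to 9.22), and was seen in 28 members. Gp1ba had a log2 ratio of 8.34 (7.56 to 9.12). Itgb3 (ENSMUSG00000020689), the beta chain of the fibrinogen receptor, had 7, 125, 7 and 99 UMIs in members of libraries 1 to 4. It was seen in 46 members and stood at 575 and 3.66 CPM, a log2 ratio of 7.30 (7.07 to 7.53). The integrin chains Itga2 and Itga6, which bind collagen and laminin, had log2 ratios of 4.84 and 4.46, and the tetraspanin Cd9 had 4.24. Clec1b, the podoplanin receptor CLEC-2, was seen in 50 members and had a log2 ratio of 4.25 (4.04 to 4.45), and it was also found in 36.6% of C1q macrophages. The junction proteins Jam3 and F11r met no call, at 1.11 and 1.498.

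Of 18 alpha granule contents tested, 12 were higher and 1 lower, with a median log2 ratio of 2.49. Thbs1, thrombospondin, had 14, 121, 5 and 66 UMIs in members of libraries 1 to 4 and stood at 498 CPM in members and 14.0 CPM in the others, a log2 ratio of 5.15 (4.94 to 5.36). Vwf, von Willebrand factor, was at 4.76 (4.41 to 5.09) and Mmrn1, which binds coagulation factor V, at 5.03 (4.42 to 5.58). Angpt1, a ligand of the endothelial receptor TIE2, had a log2 ratio of 6.55 (5.92 to 7.15) and Serpine2, a protease inhibitor, 6.22 (5.85 to 6.58). Selp, the adhesion receptor P-selectin that is stored in the granule membrane, was at 4.65 (2.64 with no call without the members of 10000 UMIs or more), Tgfb1 at 3.82 and F13a1, a coagulation transglutaminase, at 3.19. Gas6, a ligand of TAM receptors, was lower, with 2 UMIs in members and a log2 ratio of -2.17 (-5.22 to -0.32), and it met no call without the deep members (-0.82), library 1 (-1.59), library 2 (-1.76) or library 4 (-2.37). F5, Clu and Sparc met no call, at 0.89, 0.53 and 0.98. F5 was seen in 28.2% of members and 21.0% of hepatocyte-rich barcodes, and Clu in 73.2% and 56.5%.

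Granule formation and release genes were higher in 10 of 16 and lower in none, with a median log2 ratio of 1.74. Slc35d3, needed for dense granules in mice, had 0, 15, 0 and 10 UMIs in members of libraries 1 to 4 and a log2 ratio of 11.30 (9.59 to 13.67), from 25 UMIs in members and 3 in all others. All 25 lay in 6 deep barcodes. Slc6a4, the serotonin transporter that fills platelets, had 1, 17, 2 and 7 UMIs and a log2 ratio of 7.67 (6.91 to 8.41), and only 2 of its 27 UMIs lay in the 7 deep barcodes without markers of other cells. Rab27b, a GTPase of granule release, was at 7.52 (7.18 to 7.85), Stx11 at 4.75, Slc18a2, which loads amines into granules, at 4.68, and Unc13d at 3.81. Vps33b was at 2.59 and Hps1, of lysosome-related organelles, at 1.88. Hps1 met no call without library 2 (1.22), without the members of 10000 UMIs or more (1.54) or by the mean over barcodes (0.4996). Vps33b was -0.37 without the deep members and 0.13 by the mean over barcodes. Slc18a2 met no call without the deep members (3.72), and 6 genes of the list were higher then. Nbeal2, needed for alpha granules, met no call at 0.56 (-1.06 to 1.79), with 5 UMIs in members.

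Platelet activation signalling had 22 of 27 genes higher and none lower, with a median log2 ratio of 3.46. Treml1, a receptor of alpha granule membranes, had 1, 82, 4 and 68 UMIs in members of libraries 1 to 4 and a log2 ratio of 9.35 (8.94 to 9.77). It was seen in 40 members and in no hepatocyte-rich barcode. The thrombin receptors F2rl2 and F2rl3 were at 8.48 (8.06 to 8.89) and 7.37 (6.59 to 8.12). P2rx1, a channel opened by ATP, was at 8.46 (7.62 to 9.31), and Trpc6, a calcium channel, at 9.78 (8.70 to 10.98). Trpc6 lost its call without the members of 10000 UMIs or more, at 7.28. Alox12 (ENSMUSG00000000320), platelet 12-lipoxygenase, had 4, 54, 3 and 47 UMIs, was seen in 43 members and was at 7.71 (7.34 to 8.07). Mrvi1 and Pde5a, of the nitric oxide and cyclic GMP pathway, were at 7.13 and 6.27. P2ry12, the ADP receptor blocked by clopidogrel, had 2 UMIs in members and met no call at 1.76 (-1.30 to 3.63).

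The platelet cytoskeleton list had 19 of 20 genes higher, none lower, with a median log2 ratio of 2.95. Tubb1 (ENSMUSG00000016255), the beta tubulin of the platelet's marginal band, had 13, 45, 9 and 29 UMIs in members of libraries 1 to 4. It stood at 232 CPM in members and 0.184 CPM in the others, a log2 ratio of 10.30 (9.63 to 11.03). Myl9, a myosin regulatory light chain, had 2, 127, 6 and 102 UMIs, was seen in 52 members and was at 7.18 (6.95 to 7.41). The focal adhesion genes Parvb, Zyx, Rsu1 and Lims1 were at 4.85, 3.61, 3.36 and 3.22, the tropomyosin Tpm4 at 3.26 and Ctla2a, a cathepsin inhibitor, at 4.84. Pdlim1 met no call at 0.98.

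Of 19 megakaryocyte transcription factors tested, 16 were higher and none lower, with a median log2 ratio of 2.92. Nfe2, a factor of platelet shedding, had 2, 13, 0 and 28 UMIs in members of libraries 1 to 4 and a log2 ratio of 4.59 (4.10 to 5.04). Gata1 (ENSMUSG00000031162) was at 4.08 (3.53 to 4.59), Gfi1b at 3.79, Tal1 at 3.59, Lyl1 at 3.44, Fli1 at 3.04 and Mef2c at 2.96. This count rested on the deep barcodes, since 5 of 19 were higher without them and 6 by the mean over barcodes. Gata1 was seen in 9 members, of which 6 held 10000 UMIs or more, and was at 1.98 without those, with no call. Tal1 met no call without the deep members (0.49) or by the mean over barcodes (0.898), nor did Mef2c by that mean (0.42). Of 12 genes of thrombopoietin and stem cell signalling, 5 were higher and none lower, with a median of 0.78, and 3 were higher by the mean over barcodes. Slamf1 was at 4.58, Cd34 at 2.72, Flt3 at 2.39 and Stat5a at 1.63, and the stem cell factor receptor Kit met no call at -0.35. Flt3 lost its call without library 2 (1.02), Stat5a without library 4 (0.77) or the deep members (0.99), and Cd34 without the deep members (1.83) or by the mean over barcodes (1.703).

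**Figure D3:**
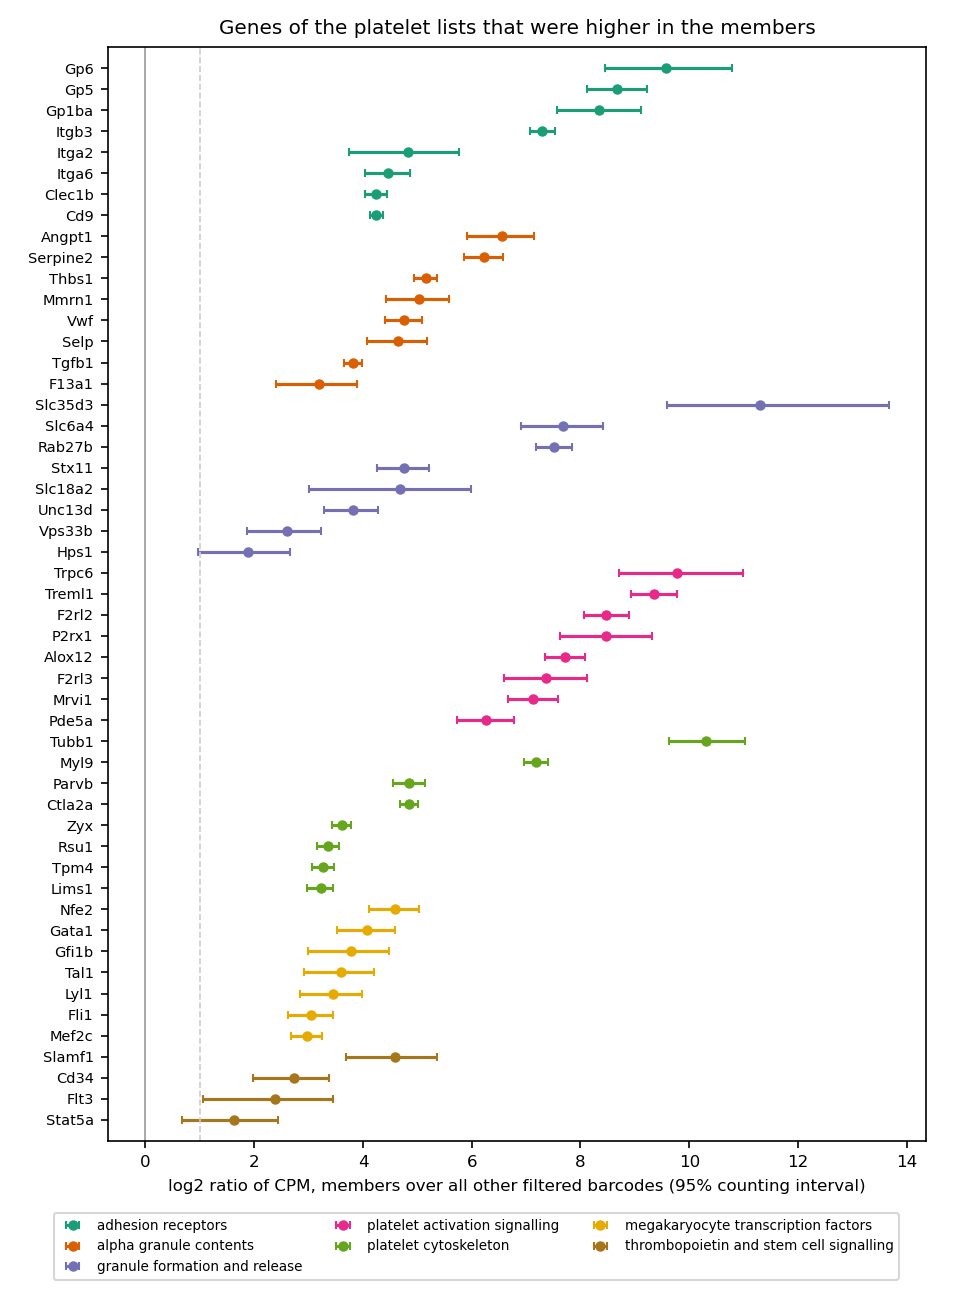
Log2 ratio of CPM, members over all other filtered barcodes, with 95% counting intervals, for named genes, up to 8 of each of the 7 platelet and megakaryocyte lists, that were higher in members. The solid line marks equal levels and the dashed line the 2-fold limit. Ratios run from 1.63 for Stat5a to 11.30 for Slc35d3.

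Among platelet immune mediators, 3 of 15 were higher and 3 lower, with a median of -0.10, or 0.26 where genes with no UMI are set to 3 counts, and 5 were higher without the members of 10000 UMIs or more. Tnfsf14, a cytokine of the tumor necrosis factor family, was at 3.86 (2.52 to 4.94), Tgfb1 at 3.82 and Cd47, a signal against engulfment, at 1.64. Ccl3 was at -2.60, S100a8 at -1.93 and S100a9 at -1.18. The S100a9 UMIs came from 3 members, and its ratio was 0.27 by the mean over barcodes. S100a9 lost its call without library 2 (-0.94) or 3 (-0.32) and S100a8 without library 3 (-0.82) or the deep members (-0.57). Ccl3 met no call without the deep members (-1.83).

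Of the genes outside all lists, the 20 with the largest ratios and at least 50 UMIs in members included several with known roles in platelets. Nrgn, a calmodulin-binding protein, was seen in 66 of 71 members and stood at 1407 CPM in members and 8.33 CPM in the others, a log2 ratio of 7.40 (7.25 to 7.55). Tmem40 was at 8.02, Rgs18, which restrains G protein signalling in platelets, at 6.77, and Prkar2b, a subunit of protein kinase A, at 6.07. The urea transporter Slc14a1 was at 5.83, Adgrg1 at 4.87, the glucose transporter Slc2a3 at 4.84 and Pdzk1ip1 at 4.42. Smim3 was at 4.38, Plek, pleckstrin, a main substrate of protein kinase C in platelets, at 4.29, and Rgs10 at 4.18. Ppic, Bin2, Dapp1, Tspan32, Lat, Rabgap1l, Unc119 and Cdkn2d lay between 3.66 and 4.09. Tspan32 met no call without the members of 10000 UMIs or more (1.07). Fscn1, an actin bundler of mature dendritic cells, was at 4.26 but was seen in 7 members, and its ratio was -0.27 without the 16 members with markers of other cells and 0.94 without library 2. The 5 genes with the smallest ratios were Saa2 (-6.63), Spp1 (-6.00), Hamp (-5.34), Arg1 (-5.11) and Saa1 (-5.04), of which Saa1, Saa2, Hamp and Arg1 are made by hepatocytes. All Saa1, Saa2 and Hamp UMIs of the members lay in library 3. With libraries 2 and 4 at equal weight, the ratios of Saa1 and Saa2 were 1.16 and 2.36. Members held 0 UMIs of both genes in these libraries and each 0 was set to 3 counts, so these 2 ratios show neither higher nor lower levels there. Libraries 2 and 4 held 27 and 37 of the members, while the other barcodes came from all 4 libraries. The part of this in the pooled ratios of these 5 genes was not tested.

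Deep and shallower members differed in the genes they carried. By limits set after the values were seen, 8 members held 10000 UMIs or more, 41 held at least 1000 but under 10000 and 22 held fewer than 1000. Leaving out members that met the limits for markers of other cells, 7 deep members, 4 of library 2 and 3 of library 4, were set against 48 shallower ones. The 48 were not free of such markers, and 1 of them gave 2.47% of its UMIs to hepatocyte markers. The 7 held 17159, 22058, 23153, 28589, 30715, 42988 and 74234 UMIs. Their mitochondrial share was 0.152% to 0.934%, against a median of 2.88% in the 48 shallower members. Hepatocyte markers took a median of 0.0372% of UMIs in the 7 deep members and 0.902% in the 48 shallower ones, and the part of free RNA in the differences was not tested. Pf4 had 229, 135, 16, 120, 370, 288 and 1036 UMIs in the 7 deep members in that order, and Ppbp 63, 1, 0, 0, 55, 0 and 35, so 3 of the 7 held no Ppbp UMI at all. Of 2500 genes with at least 20 UMIs over both sets, 27.8% were at least 2-fold higher in the deep members and 14.1% lower. Of these 2500 genes, 1491 reached 20 UMIs in the deep members alone and 120 in the shallower ones alone, so this filter favours genes that are high in the deep members. The lists were therefore counted over genes with at least 20 UMIs in the other filtered barcodes, a filter that uses neither set and was added after the data were seen. Of 15965 such genes, 4.91% were higher in the deep members and 7.21% lower. Calls between deep and shallower members did not ask for the same direction in libraries 2 and 4.

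Transcription factor and cell division genes were higher in the deep members. Of 19 transcription factors 9 were higher and 1 lower, of 20 S phase genes 7 were higher and none lower, and of 20 G2 and M phase genes 9 were higher and none lower. Zfpm1, a cofactor of GATA1, stood at 306 CPM in the deep members and 12.96 CPM in the shallower ones, a log2 ratio of 4.56 (2.04 to 9.88). Lmo2, a bridging partner of GATA1 and TAL1, stood at 314 and 25.9 CPM. Tal1 had 21 UMIs in all 7 deep members and 0 in the 48. Ube2c, of the anaphase-promoting complex, stood at 716 and 38.9 CPM, and Mki67, a marker of dividing cells, at 176 and 12.96 CPM, in the deep and the shallower members. In order of depth the 7 held 0, 2, 10, 1, 0, 10 and 19 Mki67 UMIs, and those with 10 or more were the deep members of library 4. G2 and M phase genes took 0.0758% to 0.505% of the UMIs in 6 of the 7, and 1 deep member held no UMI of these genes. Serpine2 (3.60) and Slc14a1 (3.32) were higher as well, and both lost the call without library 2, at 1.70 and 2.21.

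Cytoskeleton and adhesion genes were lower in the deep members. The rule asks for the same UMIs of its genes at any depth, so a shallower barcode needed a larger share of them to be a member. The part of this in the differences between deep and shallower members was not tested. Of 20 cytoskeleton genes 11 were lower and 1 higher, of 12 adhesion receptors outside the rule 8 were lower and none higher, and of 18 alpha granule genes 10 were lower and 3 higher. Tubb1 had 4 UMIs in 1 of the 7 deep members, although these are deeper, and was seen in 27 of the 48 shallower ones. Its level was 16.7 CPM in the deep and 1076 CPM in the shallower members, a log2 ratio of -6.01 (-7.91 to -4.60). Myl9 had 1 UMI in the deep members and was seen in 41 of the 48, a log2 ratio of -9.17 (-14.48 to -6.67). Alox12 was at -3.95, Ctla2a at -3.93, Thbs1 at -3.57, Gp6 at -3.13 and Nrgn at -2.95. Slc6a4 was at -5.15 (-8.28 to -3.14), while Slc35d3 had 25 UMIs in 6 deep members and 0 in the 48. Rgs18, at 0.27 (-0.41 to 1.00), and Rab27b, at 0.66, met no call. Rgs18 was -0.17 without library 2. Leaving out a library moved the size of several of these ratios: Thbs1 was -6.79 without library 2 and -2.52 without library 4, and Alox12 was -5.72 and -2.77. Without library 4, Tubb1 was -4.92, Myl9 -7.86 and Slc6a4 -4.10.

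**Figure D4:**
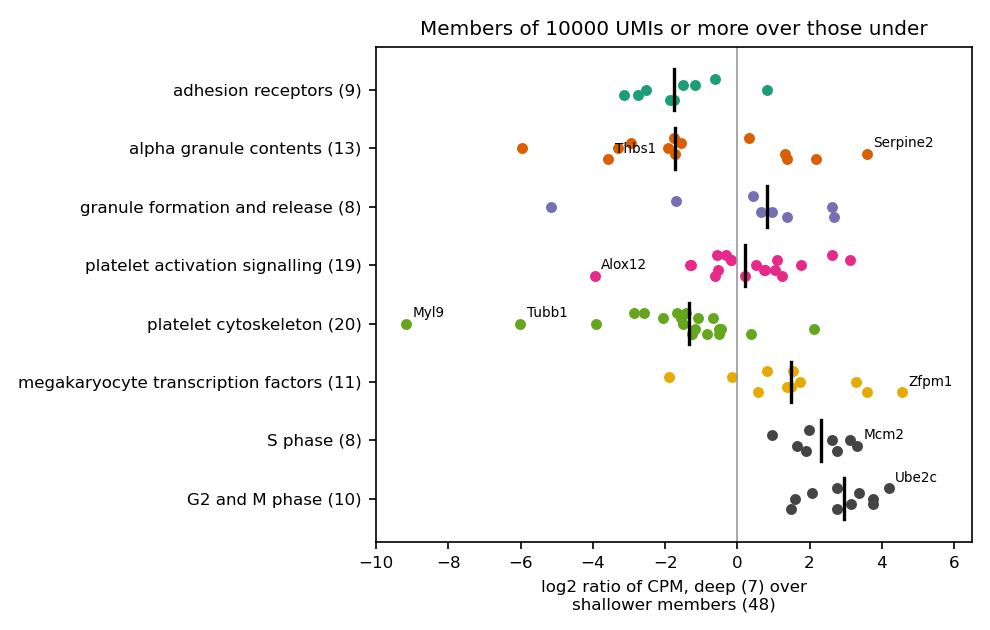
Log2 ratio of CPM, 7 members of 10000 UMIs or more over 48 members under 10000 UMIs. Members that met the limits for markers of other cells are left out of both. Each point is 1 gene of a list with at least 20 UMIs and a UMI on both sides, black bars are medians, and the number of genes is in parentheses. Of 13 transcription factors with at least 20 UMIs over both sets, 12 reach 20 UMIs in the deep members alone. Tal1, with no UMI in the shallower members, is not drawn. Cytoskeleton and adhesion genes lie mostly left of the line at equal levels, and transcription factor, S phase and G2 and M phase genes mostly right of it.

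Over all members, S phase and G2 and M phase genes gave 14 of 40 higher and 1 lower, Rrm2, a subunit of ribonucleotide reductase, at -1.24. Mcm3, of the replication helicase, was at 2.29, E2f1 at 2.07, Mcm2 at 2.04, Mcm5 at 1.86 and Uhrf1 at 1.55. Ube2c was at 2.02, the kinase Aurkb at 1.98, Ccnb1 at 1.76, Bub1 at 1.65, Cdk1 at 1.43, Cdc20 at 1.13 and Ccnb2 at 1.05. The count was 2 without the members of 10000 UMIs or more, 3 by the mean over barcodes, 32 without library 2 and 8 without library 4. Without library 4, Ube2c (0.996), Cdk1 (0.76), Uhrf1 (0.82) and Bub1 (0.61) met no call. Cdc20 met none without library 1 (0.98) or 2 (1.04), nor Ccnb2 without library 1 (0.92) or 3 (0.87), and Rrm2 met none without library 2 (-2.12) or 4 (-0.4999). Mki67 was -2.03 in library 2 and 2.71 in library 4 and met no call. Ube2c was seen in 14.1% of members and 10.9% of hepatocyte-rich barcodes, and Mki67 in 11.3% and 6.64%.

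The members were then set against 3 other sets of barcodes found by similar rules. These were 271 erythroid precursors, 131 granulocyte-monocyte progenitors and 2207 C1q macrophages, after 4 members that met the erythroid rule and 2 that met the progenitor rule were kept as members. Of 8789 genes tested against erythroid precursors, 12.9% were higher in members and 12.3% lower. Of 8741 against progenitors, 10.5% were higher and 11.7% lower, and of 11453 against C1q macrophages, 11.9% were higher and 10.9% lower. Pf4 was at 401 CPM in C1q macrophages and had no UMI in the other 2 sets.

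Against erythroid precursors, which share a parent cell with megakaryocytes, all 10 adhesion receptors and all 24 activation genes tested were higher in members. Transcription factors divided, with 7 of 18 higher and 3 lower. Gata1 stood at 79.8 CPM in members and 215 CPM in erythroid precursors, a log2 ratio of -1.43 (-1.98 to -0.92). Gfi1b was at -1.69 (-2.49 to -0.99) and Tal1 at -1.07 (-1.77 to -0.45). Tal1 met no call without library 4 (-0.85) or without the 16 members with markers of other cells (-0.75). Fli1, the ETS factor, stood at 126 CPM in members and 3.97 CPM in erythroid precursors, a log2 ratio of 4.98 (3.99 to 6.13). Mef2c was at 4.76, and Nfe2 was at 0.18, which met no call. Of 20 S phase genes 16 were lower in members and none higher, and of 20 G2 and M phase genes 17 were lower and none higher. Rrm2 was at -5.00 and Mki67 at -2.00.

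Against granulocyte-monocyte progenitors, 9 of 10 adhesion receptors, 22 of 23 activation genes, 19 of 20 cytoskeleton genes and 11 of 17 transcription factors were higher in members, none of them lower. Vwf had no UMI in the progenitors, Timp3 stood at 314 CPM in members and 1.03 CPM in progenitors, and Gata1 was at 4.47 (3.27 to 5.90), or 2.37 with no call without the members of 10000 UMIs or more. The neutrophil marker S100a9 was at -3.05. Cell division genes were lower in 4 of 19 S phase and 4 of 20 G2 and M phase genes and higher in none.

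Against C1q macrophages, 9 of 11 adhesion receptors were higher and 1 lower, and 12 of 17 transcription factors were higher and none lower. The lower one was Fcer1g, a signalling chain shared with macrophages, at -1.74 (-1.89 to -1.60). Clec1b stood at 515 CPM in members and 231 CPM in macrophages, a log2 ratio of 1.15 (0.94 to 1.36), which was 0.97 with no call without library 2. Itgb3 was at 6.73 (6.25 to 7.25) and Nfe2 at 5.45 (4.63 to 6.33). Immune mediators went the other way, with 1 of 12 higher and 5 lower, among them the chemokine Cxcl2 at -3.62 (-4.05 to -3.23) and the cytokine Il1b at -2.17 (-2.61 to -1.76). S phase genes were higher in 8 of 19 and G2 and M phase genes in 12 of 20, and Mki67, at 1.48 with no call against macrophages, was -0.39 without the members of 10000 UMIs or more.

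**Figure D5:**
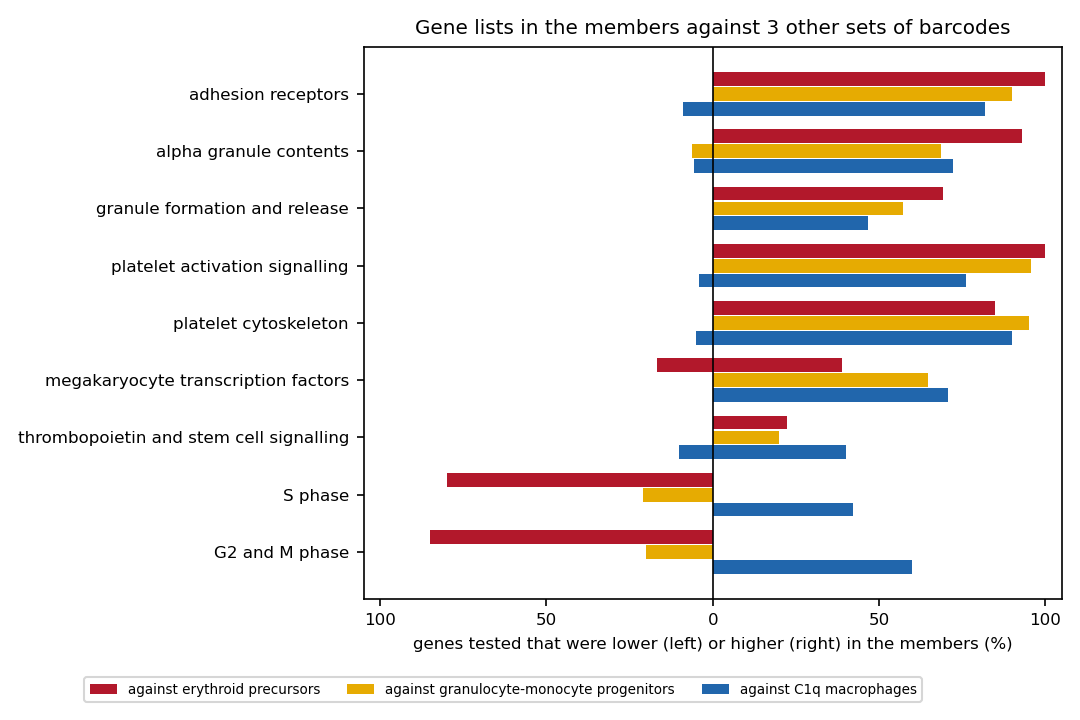
Percent of the genes tested in each list that were higher (right of 0) or lower (left of 0) in members, against erythroid precursors, granulocyte-monocyte progenitors and C1q macrophages. Adhesion, activation and cytoskeleton genes extend to the right in all 3 comparisons, while S phase and G2 and M phase genes extend left against the first 2 sets and right against C1q macrophages.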

How the data were processed

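Single cells from digested liver, after lysis of red cells, went into a 10x Genomics 3′ kit, per the labels' protocols. The deposited matrix holds raw UMI counts, made by the authors with Cell Ranger (version 6.0.1, per the file headers). The genome build is mm9 per the submitters' processing notes, so the GRCm38.p6 promoters carry the only coordinates given. Whether libraries were scaled to equal depth is not stated there. A name table matched 30934 of 31053 gene identifiers.

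The members, gene lists and comparisons were chosen with earlier results of these data known. Barcodes were filtered at 500 UMIs, 200 genes and 20% mitochondrial UMIs. UMIs were summed over barcodes and scaled to CPM. Ratios have exact conditional binomial intervals and shares have Clopper-Pearson intervals, all at 95% (Python 3.11.15, numpy 2.4.6, scipy 1.17.1, pandas 2.3.3, matplotlib 3.10.9). Genes with at least 20 UMIs over both sides were tested against the 2-fold limit. Except between deep and shallower members, the direction in libraries with at least 20 members was also asked for. Doublets were scored in each library by Scrublet (scanpy 1.11.5, expected rate 8%) and were kept. The ratio code was tested on simulated counts. Hepatocyte-rich barcodes gave at least 2% of their UMIs to 10 hepatocyte markers. Erythroid precursors held at least 2 UMIs of a set of erythroid genes that includes Klf1, Car1, Hemgn, Epor, Ermap and Rhd, progenitors at least 4 of Mpo, Elane, Prtn3 and Ctsg, and C1q macrophages at least 3 of C1qa, C1qb and C1qc.

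A few genes counted in these lists are not reported by name here. Apart from these, the text names the 5 genes of the rule, the rule-independent genes, and up to 8 higher and 2 lower genes of each list by ratio. It names marker lists by their summed level, and outside the lists 20 higher genes with at least 50 UMIs in members and 5 lower genes. Other genes were named after their values were seen: those that met no call, those set between deep and shallower members, and those of the comparisons with the 3 other sets. The UMI bands, the limits for markers of other cells and the hepatocyte-rich set were also chosen after seeing the data. Gp1bb overlaps Sept5 and Clec1b overlaps Clec9a on the same strand in GENCODE, and their counts may be shared. A count of 0 in a ratio was taken as 3 counts for medians over lists. Depth per member runs from 516 to 74234 UMIs. Alternatives covered libraries, doublets, each limit of the rule, the cell filters, the fold, the gene filter and the weights of barcodes and libraries.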

Additional observations from a re-analysis of the deposited data

How the results depend on the processing

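No paired analysis was possible because the libraries are not mapped to samples, so the replicate numbers of the labels cannot be carried to barcodes. Alternatives that leave out deep members, members with markers of other cells or members with fewer than 2 rule-independent genes were chosen after seeing the data. The number of members was 108 with no minimum of Pf4 and lay between 34 and 68 with each library left out. Their share was 0.299% with no minimum of Pf4, 0.141% with a sum of at least 4, 0.152% without markers of other cells, and 0.124% to 0.262% with each library left out. The number with at least 2 rule-independent genes lay between 28 and 60 with each library left out. That percent was 57.7% thinned, 66.7% with no minimum of Pf4, 96.5% and 96.1% with sums of at least 3 and 4, and 100% by construction where members with fewer than 2 were left out. The genes of the 7 lists that were lower were 0 with libraries at equal weight or no minimum of Pf4, 2 without markers of other cells, 3 with no limit on C1q genes and 0 to 2 with each library left out. Higher cell division genes were 4 at 4-fold, 3 by the mean over barcodes, 2 without deep members, 25 with no minimum of Pf4 and 8 to 32 with each library left out.

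Of 110 named genes called, 2235 of 2409 ratios under alternatives kept their call, 148 lost it and 26 changed sign. By the mean over barcodes 23 lost it and 3 changed sign, without the members of 10000 UMIs or more 20 and 11 of 106, and without markers of other cells 3 and 3. Cell division genes make up many of these: by the mean over barcodes Mcm2 was 0.56, Mcm3 0.904, Cdk1 0.43, Ube2c 0.98 and Bub1 0.52, and without deep members Aurkb was 0.93, Ccnb1 0.21, E2f1 1.52 and Mcm5 0.68. Gp1ba, Gp6, F2rl3, Trpc6 and Slc35d3 kept ratios of 6.82 or more but lost the call without library 2 or 4. The cause of these changes was not tested. Without the members of 10000 UMIs or more the log2 ratios were -0.043 for Calr, -2.05 for Ccnb2, -1.04 for Cdc20, -0.73 for Cdk1, -0.37 for Dtl, -1.89 for Hells, -0.10 for Mcm2, -0.090 for Ube2c, -0.093 for Uhrf1, -0.37 for Vps33b and 0.18 for S100a9. By the mean over barcodes they were -0.85 for Gata2, -0.054 for Hells and 0.27 for S100a9. Without markers of other cells they were -4.68 for Cd74 and -5.10 for H2-Aa, which both helped choose those members, and -0.27 for Fscn1. With a sum of at least 4 they were -0.41 for Cd74 and -0.13 for H2-Aa. Without members that met the progenitor or erythroid rule they were -0.094 for Uhrf1 and -0.96 for Vps33b. With libraries at equal weight they were 1.16 for Saa1 and 2.36 for Saa2, which rest on the 3 counts set in place of 0. Ccl3 was 0.52 with no limit on C1q genes and 1.64 with no minimum of Pf4, and Rrm2 was 0.58 with no minimum of Pf4. Against C1q macrophages, Mki67 lay between -1.38 (without library 4) and 2.74 with each library left out and was -0.39 without deep members. Top2a lay between -0.11 (without library 4) and 2.84 against them with each library left out. S100a9, which helped choose the members with markers of other cells, was -5.15 against macrophages without those members. Of 73 ratios called against the 3 other sets, 1026 of 1063 values kept their call, and of 17 between deep and shallower members, 101 of 108 did. With 71 members, a gene at 0 UMIs is not detectable at this depth below 3 counts in 413640 UMIs.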

Other observations

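Platelet genes were not confined to the members. Among the 36079 other filtered barcodes, 8 held at least 5 of the 15 rule-independent platelet genes, with a maximum of 12. Of these, 5 were C1q macrophages, which the limit on C1q genes keeps out of the members. A further 282 barcodes held Pf4 but none of the 4 genes summed by the rule, and 9 of them held at least 2 of the 15 genes. Members held 41.1% of all Pf4 UMIs of the filtered barcodes, 67.8% of Gp9, 74.3% of Ppbp, 75.7% of Gp1bb and 40.8% of Itga2b.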
